A study of Homo sapiens with 6 samples.

Results

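NRF2 occupancy was examined at 10 genes of the eicosanoid pathway in HMC3 cells, an established line of human microglia: TBXAS1, PTGS1, PTGS2, PTGES, PTGIS, ALOX5, ALOX5AP, LTC4S, PTGR1 and HPGD. They are 10 of 19974 protein-coding genes. Chromatin immunoprecipitation and sequencing (ChIP-seq) with an antibody to NRF2 was done in duplicate under vehicle and under CDDO-Im (30 nM, 4 h), a triterpenoid that activates NRF2, which gave 2 libraries per condition. What the vehicle was is not stated in the labels. Every library came from the same cell line, and peak lists give no expression, so the identity of the cells was not checked against microglial markers. A peak was assigned to a gene when its summit lay inside the gene or within 50 kb of either end. The genes were chosen by pathway, around TBXAS1, which was itself selected on the high fold enrichment of a region inside it that only the CDDO-Im libraries listed, so its own values are a description, with no test.

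NRF2 is a transcription factor that is kept low by KEAP1 and, once stabilised, binds antioxidant response elements together with a small MAF partner. Eicosanoids are lipid mediators made from arachidonic acid. The cyclooxygenases PTGS1 and PTGS2 make prostaglandin H2, which the terminal synthases TBXAS1, PTGES and PTGIS turn into thromboxane A2, prostaglandin E2 and prostacyclin. ALOX5, with its membrane partner ALOX5AP, opens the leukotriene branch, and LTC4S conjugates leukotriene A4 with glutathione. PTGR1 and HPGD inactivate prostaglandins, and PTGR1 also acts on leukotriene B4. In the brain, PTGS1 is known as the cyclooxygenase of microglia, and TBXAS1 is known for its expression in cells of the myeloid lineage.

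Overlapping peaks were joined into regions. A region listed in both CDDO-Im libraries is called a shared CDDO-Im region here, one listed in both vehicle libraries a shared vehicle region, one listed in both CDDO-Im and neither vehicle library a CDDO-Im-only region, and one listed in every library a common region. Shared CDDO-Im regions lay inside TBXAS1, as a pair, and inside PTGS1, as a single region. The other member genes held none between their ends. PTGS1 was also occupied in both vehicle libraries, at a lower level. TBXAS1 was listed under vehicle only at the second of its regions and only in vehicle 2. PTGS2, PTGES, PTGIS, ALOX5AP and HPGD had no peak in any library within 50 kb.

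The sequences under these peaks are not used here, since they lie far from a start site and only promoter sequences were given. Promoters are shown instead, from RefSeq on GRCh38.p14, 250 bases before to 50 after a start site. Whether the TBXAS1 and PTGS1 promoters have any link to the regions inside these genes was not tested. TBXAS1 (chr7:139829014-139829313, plus strand) and PTGS1 (chr9:122370283-122370582, plus strand, the first of its 2 start sites in the table) are the members with shared CDDO-Im regions inside the gene. PTGES3 (chr12:56688235-56688534, minus strand), which encodes a cytosolic prostaglandin E synthase also known as the HSP90 cochaperone p23, was the promoter of the wider pathway that a listed peak overlapped. Capitals mark TGACNNNGC, the core of the antioxidant response element, where N is any base. In PTGES3 the match is on the other strand and is printed as its reverse complement.
TBXAS1: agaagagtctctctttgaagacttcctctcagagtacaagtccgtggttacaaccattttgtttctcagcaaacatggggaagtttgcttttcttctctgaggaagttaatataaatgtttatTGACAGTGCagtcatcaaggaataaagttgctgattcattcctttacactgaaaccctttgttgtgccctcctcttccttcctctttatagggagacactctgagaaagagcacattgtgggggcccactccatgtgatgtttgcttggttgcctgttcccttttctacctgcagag
PTGS1: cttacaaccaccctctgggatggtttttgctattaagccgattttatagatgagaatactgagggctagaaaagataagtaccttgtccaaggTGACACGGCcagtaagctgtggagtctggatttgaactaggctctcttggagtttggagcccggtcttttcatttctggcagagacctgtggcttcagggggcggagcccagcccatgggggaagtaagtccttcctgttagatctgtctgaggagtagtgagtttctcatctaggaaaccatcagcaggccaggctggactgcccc
PTGES3: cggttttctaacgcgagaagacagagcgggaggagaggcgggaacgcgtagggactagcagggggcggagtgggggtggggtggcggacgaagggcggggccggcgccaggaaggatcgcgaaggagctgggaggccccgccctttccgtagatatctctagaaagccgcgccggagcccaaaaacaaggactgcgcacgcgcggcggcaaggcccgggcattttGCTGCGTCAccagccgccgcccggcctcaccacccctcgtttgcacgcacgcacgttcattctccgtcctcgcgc

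The match began 127 bases before the start site in TBXAS1, 157 in PTGS1 and 25 in PTGES3. The other PTGS1 promoter (chr9:122375052-122375351), whose start site is the nearer to the region inside PTGS1, held no match. No listed peak overlapped the promoters of TBXAS1 or PTGS1. Of the 10 member genes, 8 had a promoter in the table, with 10 promoters in all, and 3 of these (TBXAS1, PTGS1 and ALOX5AP) held the core on either strand. The core was in 13.3% of all 35116 promoters and in 13.8% of the 22156 promoters of protein-coding genes. The AP-1 site TGACTCA shares its first 4 letters with the core and can overlap it. It was in 0 of the 10 member promoters, 4.95% of all promoters and 4.02% of those of protein-coding genes. A match is a description of the letters and not a site.

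Over the 10 genes the vehicle libraries listed 4 peaks each, CDDO-Im 1 listed 5 and CDDO-Im 2 listed 7. The mean of log2(count plus 0.5) was 0.51 higher with CDDO-Im, with a standard error of 0.224 from the spread between libraries. The vehicle counts were equal, so this error rests on the CDDO-Im libraries alone and leaves out counting error. TBXAS1, chosen for its CDDO-Im-only region, gave 0 and 1 of the vehicle peaks and 2 of the peaks in each CDDO-Im library. On the autosomes and X, the vehicle lists held 4098 and 7308 peaks and the CDDO-Im lists 3882 and 12244, so CDDO-Im 1 had the fewest. With megabases of very many peaks left out, they held 1216 and 1276 against 3249 and 4795, a difference of 1.66 on the same scale. No member window lay in such a megabase. At a −log10 q of at least 10, the vehicle libraries listed 0 and 1 member peaks and the CDDO-Im libraries 4 each, a difference of 2.38. With the same megabases left out, the lists at that threshold held 92 and 195 vehicle peaks and 1219 and 2091 CDDO-Im peaks, a difference of 3.57. With so few member peaks, whether they differ from the lists as a whole was not tested.

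**Figure D1:**
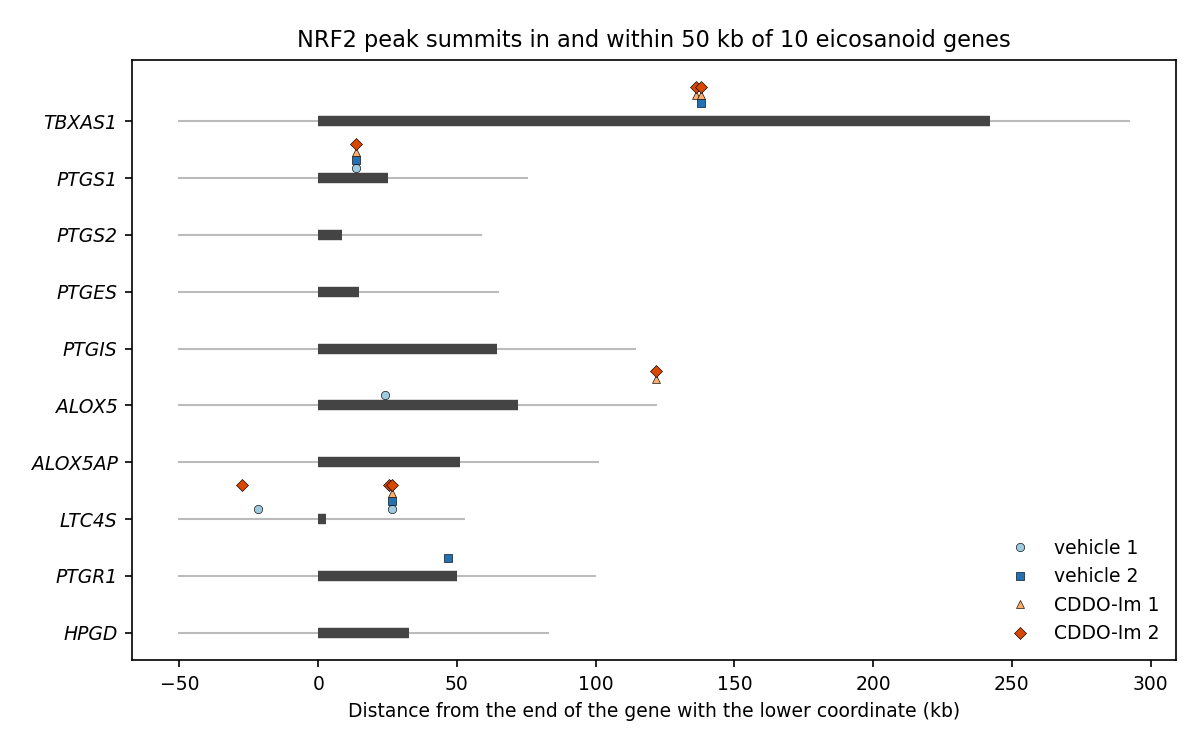
Summits of NRF2 peaks in each library (symbols) against the 10 genes (dark bars) and their 50 kb flanks (grey lines), in kb from the end of the gene with the lower coordinate. Peaks of both CDDO-Im libraries fall inside TBXAS1 and PTGS1, and 5 genes have no symbol.

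By gene, 5 of the 10 members had a peak of any library within 50 kb, against 31.5% of all protein-coding genes. Peaks of vehicle 1 lay near 3 members (6.66% of all genes), peaks of vehicle 2 near 4 (7.53%), peaks of CDDO-Im 1 near 4 (16.4%) and peaks of CDDO-Im 2 near the same 4 (23.0%). Shared CDDO-Im regions lay near TBXAS1, PTGS1, ALOX5 and LTC4S, 4 of 10 against 11.6% of all genes. Shared vehicle regions lay near PTGS1 and LTC4S, 2 of 10 against 1.81%, and in each case the region was a common one (1.78% of all genes). CDDO-Im-only regions lay near TBXAS1 and ALOX5, 2 of 10 against 7.56%. Inside the gene itself, shared CDDO-Im regions were found in TBXAS1 and PTGS1 (4.47% of all genes), CDDO-Im-only regions in TBXAS1 alone of the 10 (3.12%), and a common region in PTGS1 alone (0.556%, and 0.566% for shared vehicle regions). TBXAS1 was chosen for its region, the list is short, and the genes run from 2.7 to 242.1 kb, so nothing particular to the pathway is read from these counts.

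TBXAS1 encodes thromboxane A synthase, a cytochrome P450 of the endoplasmic reticulum, and spans 242.1 kb (chromosome 7, 139778242 to 140020293, hg38). The first TBXAS1 region (139914232 to 139914610) held 35 and 72 tags in the CDDO-Im libraries 1 and 2, and neither vehicle library listed a peak there. Tags are sequenced fragments stacked at the summit, recovered from the deposited fold enrichment and p. The exact 95% Poisson intervals were 24.4 to 48.7 and 56.3 to 90.7 tags, and here as elsewhere such intervals cover counting error only. Divided by the genome-wide background of each library, a measure of depth, these were 106 and 196, a mean of 151 ± 63.9 (SD, n = 2). The deposited fold enrichments were 20.4 and 36.2, with a −log10 q of 40.9 and 100.0.

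The second TBXAS1 region (139915987 to 139916380) held no listed peak in vehicle 1. It held 12 tags in vehicle 2, against 40 and 59 with CDDO-Im. Over background these were 38.1, 121 and 161, so each CDDO-Im library was higher than the vehicle library that listed the region. CDDO-Im 1 was 3.16-fold and CDDO-Im 2 was 4.21-fold above vehicle 2. The deposited fold enrichments were 8.93 in vehicle 2, 21.5 in CDDO-Im 1 and 39.8 in CDDO-Im 2. Ranked by whichever CDDO-Im fold enrichment was lower, this region was the stronger of the pair, at 175 among the 2116 shared CDDO-Im regions, and the first region was at 196. Among the 1428 CDDO-Im-only regions, the first region ranked 14.

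The pair of regions was compact and placed alike in both CDDO-Im libraries. The summits of the first region lay 35 bp apart between libraries and those of the second within 30 bp. The distance from the first to the second summit was 1785 bp in CDDO-Im 1 and 1740 bp in CDDO-Im 2, with 1376 bp between the regions. Of the 2116 shared CDDO-Im regions, 23 (1.09%) had another such region within 1740 bp, and the median distance to the nearest was 413176 bp. Of the protein-coding genes, 888 held at least 1 of these regions and 76 held 2 or more. The summits lay between 85143 and 86928 bp after the RefSeq start site in the promoter table, which itself lies inside the outer limits of the gene. No exon coordinates were used, so whether the summits are intronic is not stated. TBXAS1 was the nearest protein-coding gene, and no other lay within 50 kb of either summit.

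**Figure D2:**
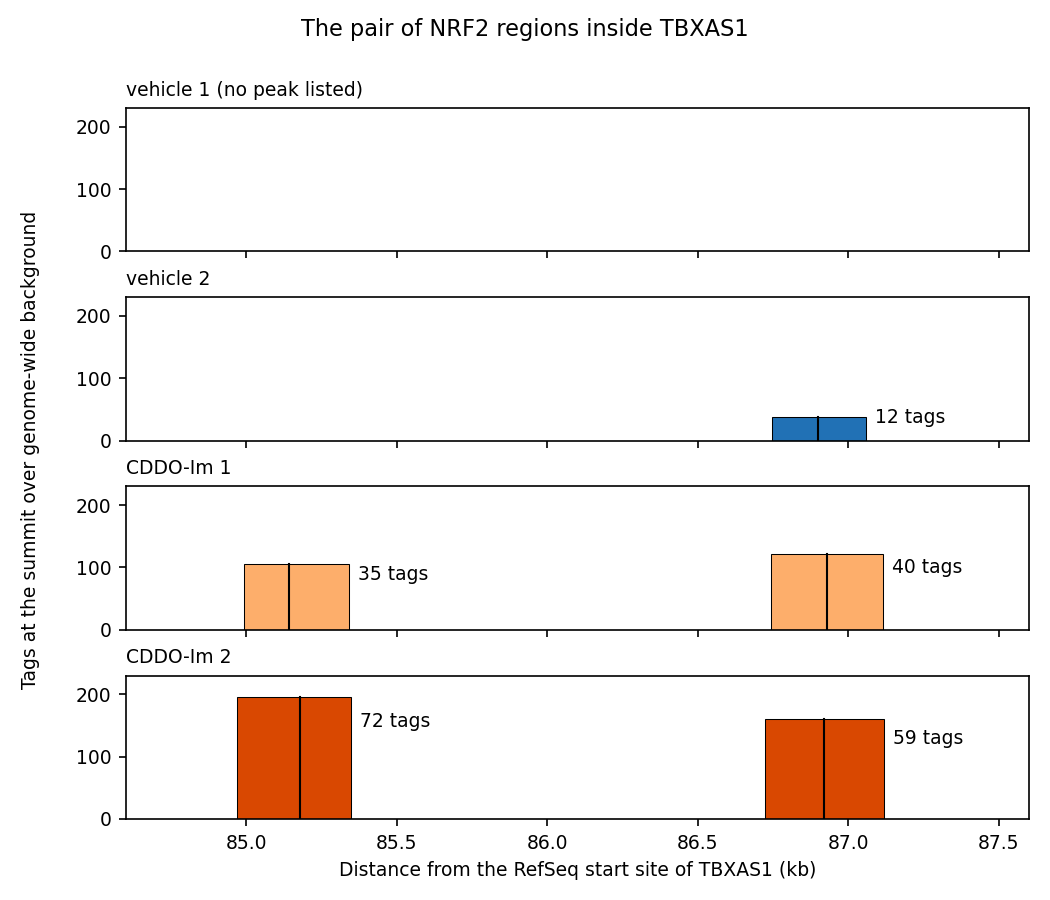
Tags at the summit over genome-wide background (bar height) for the peaks inside TBXAS1 in each library, against the distance in kb from its RefSeq start site. Bar width is the listed peak, the black line its summit. Both CDDO-Im libraries show the pair, vehicle 2 only the second region at 12 tags, and vehicle 1 neither.

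An unlisted site can be read only down to a limit, which was alike in the vehicle libraries. At the genome-wide background a site needed 4 tags to reach the lowest p listed in either vehicle library. At the local background of the first TBXAS1 region, which was 2.31 and 2.76 times the genome-wide background in the CDDO-Im libraries, it would have needed 6 tags, or 19.0 over background in vehicle 1 and 19.1 in vehicle 2. An absent peak there therefore shows a low tag number, not absence of NRF2. This estimate takes the local background of the vehicle libraries as raised like that of the CDDO-Im libraries, and leaves out any minimum length of a peak. The CDDO-Im libraries differed from each other. CDDO-Im 2 was 1.86-fold above CDDO-Im 1 at the first region and 1.33-fold at the second. The median over the 2116 regions was 1.30.

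PTGS1 encodes cyclooxygenase 1 (chromosome 9, 122370533 to 122395703, hg38). A region inside it (122383785 to 122384273), 11646 bp from its nearer end, was listed in every library. It held 11 tags in vehicle 1 and 18 in vehicle 2, against 39 and 80 tags with CDDO-Im. The vehicle 2 peak also matched 15 tags. Over background the values were 34.9 and 57.2 for vehicle and 118 and 218 for CDDO-Im, so the groups did not overlap. The means were 46.0 ± 15.8 (SD, n = 2) and 168 ± 70.8 (SD, n = 2), a ratio of 3.64. On the log2 scale the difference was 1.84 with a standard error of 0.57, and the exact permutation p was 0.333 (two-sided), the smallest that 2 against 2 libraries can give.

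Of the 230 common regions, 87.0% had more tags over background in each CDDO-Im than in each vehicle library, with a median ratio of 3.26 and quartiles of 2.46 and 3.85. The ratio of the PTGS1 region lay between the median and the upper quartile, at rank 76 of 230. In height it ranked 55 of 230 by the lowest of its 4 deposited fold enrichments and 58 of 2116 by the lower of its CDDO-Im fold enrichments, above both TBXAS1 regions. Its deposited fold enrichments were 8.73 and 13.1 in the vehicle libraries and 28.9 and 57.7 in the CDDO-Im libraries. The 4 summits lay within 69 bp of each other, and those of the CDDO-Im libraries 8755 and 8760 bp after the nearer RefSeq start site of PTGS1. No other protein-coding gene lay within 50 kb of the highest summit.

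**Figure D3:**
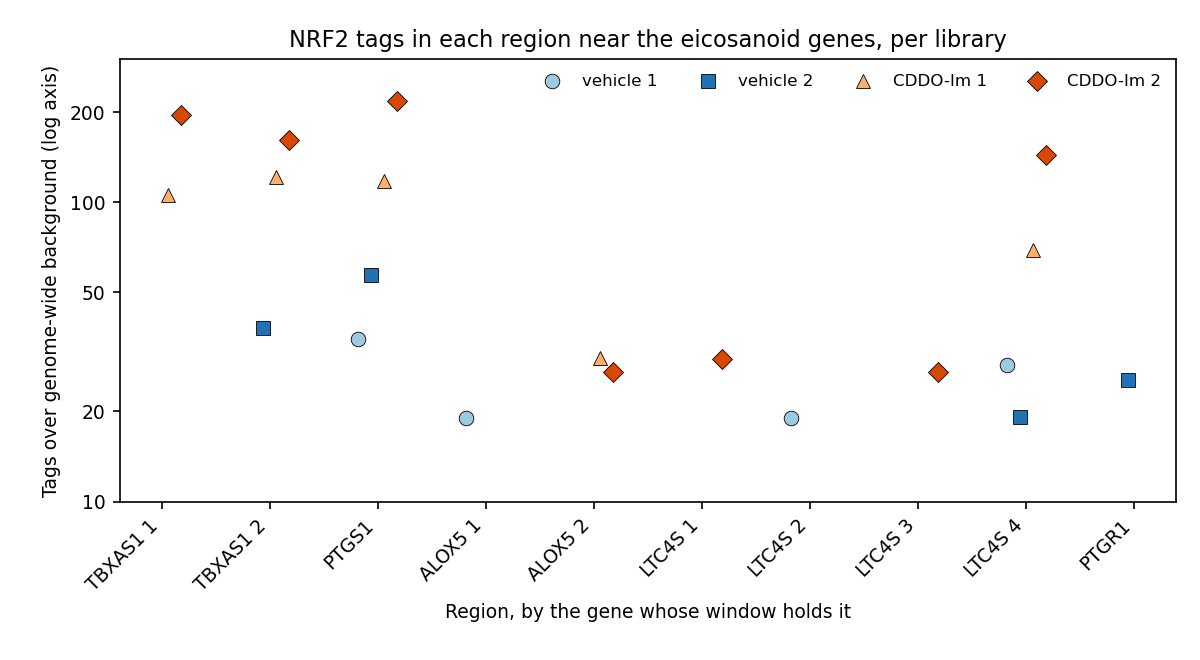
Tags over genome-wide background on a log axis for the 10 regions in the member windows, numbered by position where a gene has several, with 1 symbol per library that listed a peak. The TBXAS1, PTGS1 and strongest LTC4S (LTC4S 4) regions reach 69.3 to 218 with CDDO-Im, and every vehicle value is at most 57.2.

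**Figure D4:**
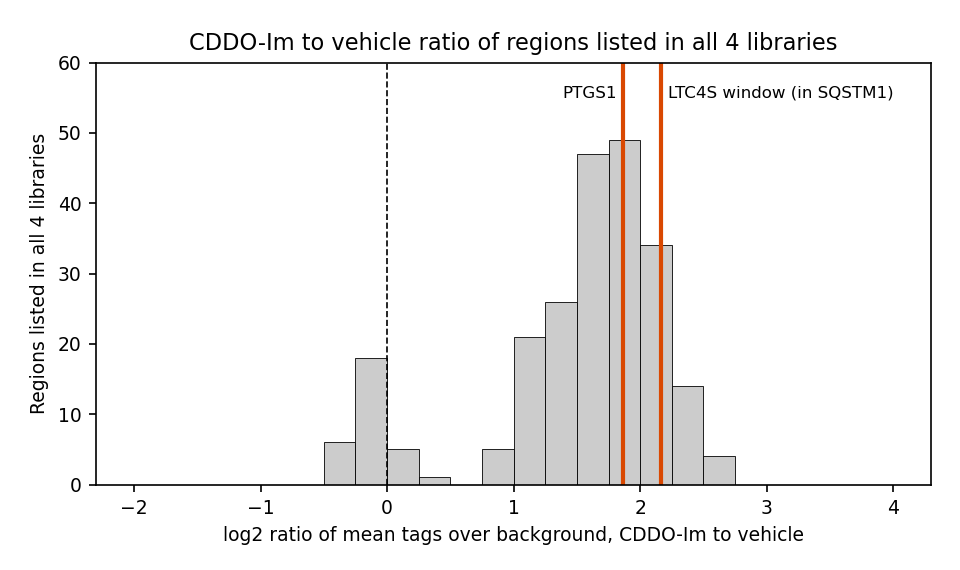
Number of common regions (230 in all) by the log2 ratio of mean tags over background, CDDO-Im to vehicle, with orange lines at the PTGS1 region (ratio 3.64) and the region in the LTC4S window (ratio 4.49). Both lines fall in the main group of regions, well to the right of the dashed line at no change.

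PTGS2, the inducible cyclooxygenase (chromosome 1, 186671791 to 186680423), had no peak in its window. The nearest listed peak of any library lay 436.3 kb away, in a shared CDDO-Im region of 6 and 13 tags that neither vehicle library listed. Among the other terminal synthases, PTGES (chromosome 9, 129738349 to 129753042) had its nearest peak 167.5 kb away, in a shared CDDO-Im region of 50 and 95 tags that vehicle 2 listed with 17. PTGIS (chromosome 20, 49503874 to 49568137), like TBXAS1 a cytochrome P450, had its nearest shared CDDO-Im region 108.7 kb away, with 37 and 60 tags, and it was listed under vehicle too, with 12 and 9 tags. The regions nearest PTGES and PTGIS were tall but lay outside the 50 kb rule. At these depths an empty window leaves room for weak occupancy.

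In the leukotriene branch, no shared CDDO-Im region lay inside a member gene. ALOX5, which encodes 5-lipoxygenase (chromosome 10, 45374216 to 45446117), held a peak of 6 tags inside the gene in vehicle 1 alone. The region that counted for ALOX5 (45495826 to 45496049) held 10 tags in each CDDO-Im library and lay inside MARCHF8, the gene of a membrane-bound ubiquitin ligase. Over background it was 30.2 and 27.2, where the medians of CDDO-Im-only regions were 33.2 and 43.5. Its summits were 49815 and 49848 bp from ALOX5, just inside the 50 kb limit, and the next peak outside the limit was 105.0 kb away with 7 tags in CDDO-Im 2. ALOX5AP, the 5-lipoxygenase activating protein (chromosome 13, 30713485 to 30764426), had no peak within 349.2 kb.

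LTC4S, leukotriene C4 synthase (chromosome 5, 179793986 to 179796647), is a short gene in a dense stretch of genes, and all 4 regions of its window lay inside MAML1 or SQSTM1. The strongest (179820245 to 179820871), 23901 bp from LTC4S and inside the autophagy receptor gene SQSTM1, held 9 tags in vehicle 1 and 6 in vehicle 2, and 23 and 53 tags with CDDO-Im. Over background these were 28.5 and 19.1 against 69.3 and 144, without overlap. The ratio of means was 4.49, at rank 27 of 230 common regions, and the log2 difference was 2.10 with a standard error of 0.60 (exact permutation p = 0.333, two-sided). The remaining 3 regions were each listed in 1 library, with 11 and 10 tags in CDDO-Im 2 and 6 tags in vehicle 1.

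Of the inactivating enzymes, PTGR1 (chromosome 9, 111549722 to 111599647) had a single peak, of 8 tags in vehicle 2 alone (111596413 to 111596591). It lay inside the gene, 2904 bp after the start site, and neither CDDO-Im library listed a peak in the window. HPGD, which encodes 15-hydroxyprostaglandin dehydrogenase (chromosome 4, 174490175 to 174522893), had the emptiest surroundings of the 10 genes: the nearest listed peak was 1132.4 kb away, with 5 tags in CDDO-Im 2.

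**Figure D5:**
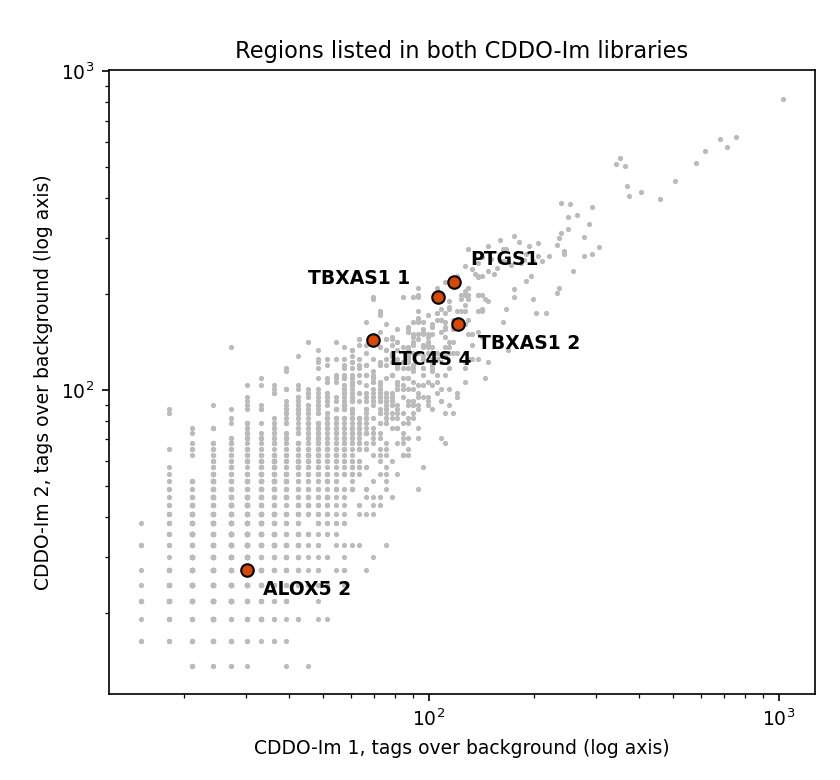
Tags over background in CDDO-Im 1 (x) and CDDO-Im 2 (y), on log axes, for the 2116 shared CDDO-Im regions outside megabases with very many peaks (grey), with the 5 regions of the member windows in orange. The TBXAS1, PTGS1 and strongest LTC4S (LTC4S 4) regions lie in the upper part of the cloud and the ALOX5 region (30.2 and 27.2) in the lower part.

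A wider list of 62 pathway genes, none of them a member, covered phospholipases, other synthases and reductases, receptors, lipoxygenases and transporters. Of these, 21 (33.9%) had a peak of any library within 50 kb, near the 31.5% of all protein-coding genes, and 8 (12.9%) had a shared CDDO-Im region, close to the 11.6% of all. Each of the 8 had a CDDO-Im-only region, 12.9% against 7.56%, and 1 gene, AKR1C3, also had a common region (1.61% against 1.78%). Inside the gene the share with a shared CDDO-Im region was 6.45% (PLCB1, AKR1C3, MGST3 and EPHX1), that is 4 genes, against 4.47% of all protein-coding genes.

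Among enzymes of this list, AKR1C3, which makes prostaglandin F from prostaglandin D2, held a region inside the gene with 16 and 6 vehicle tags against 38 and 70 CDDO-Im tags. AKR1C3 belongs to a cluster of near-identical genes, so its tags are uncertain. MGST3, a microsomal glutathione transferase, held a region of 14 and 21 tags with CDDO-Im, and EPHX1, the microsomal epoxide hydrolase, one of 18 and 25 tags, neither listed under vehicle. The lipoxygenase gene ALOX12 had a region 26565 bp outside the gene with 20 and 28 tags, also listed only with CDDO-Im. PLCB1, a phospholipase C, had 3 shared CDDO-Im regions, and the strongest held 55 and 102 tags with CDDO-Im and 13 in vehicle 2.

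PTGER2, a prostaglandin E2 receptor gene, had a pair of shared CDDO-Im regions beyond its 3′ end. The nearer, 14431 bp from the gene, held 22 and 41 tags with CDDO-Im and 10 in vehicle 2, and the farther, at 18313 bp, held 25 and 32 tags and no vehicle peak. SLCO2A1, the prostaglandin transporter, had a weak region 10898 bp away with 10 and 9 tags, and ANXA1, annexin A1, had a region 14280 bp away with 7 and 12 tags. The 6 highest of the remaining genes by fold enrichment were CYSLTR2, MGST2, PLA2G4C, AKR1B1, PTGDS and ALOX15, with 10 to 18 tags, each listed in CDDO-Im 2 alone. CYSLTR2, a cysteinyl leukotriene receptor gene, had the highest of these, 18 tags at 362 bp after its start site. The PTGDS and ALOX15 peaks lay 45107 and 38029 bp outside the gene, with TRAF2 and PELP1 nearest. The MGST2 peak lay inside MAML3 as well.

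The PTGES3 peak shown with its promoter was listed in CDDO-Im 2 alone, with 7 tags, a deposited fold enrichment of 5.31 and its summit 1 bp after the start site. Of the 66 promoters that a CDDO-Im 2 peak overlapped, 43 (65.2%) held the core TGACNNNGC, and of the 37 overlapped in CDDO-Im 1, 21 did (56.8%). In the vehicle libraries it was 6 of 11 and 8 of 13. PTGES3 was the only gene of the 10 members and 62 pathway genes with a promoter under a listed peak, among those with a promoter in the table.

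The 5 genes whose bodies held regions most like the first TBXAS1 region were SH3TC1, STX18, BMAL1, MCCC1 and HOGA1. Likeness was the distance on the log2 scale of the CDDO-Im tags over background (2 libraries), over the 1428 CDDO-Im-only regions. It ranged from 0.36 for SH3TC1 (32 and 57 tags) to 0.56 for HOGA1 (24 and 65 tags). STX18 had 29 and 56 tags, BMAL1, a clock transcription factor gene, 30 and 52, and MCCC1, a leucine breakdown enzyme gene, 30 and 51.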

How the data were processed

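NRF2 ChIP-seq peak lists of 4 HMC3 libraries were used, and the 2 input samples were left out because no peak list came with them. Tools in the submitters' processing notes are MACS2 (2.2.7.1), BWA (0.7.17) and bcl2fastq (2.15.0), and the builds there are GRCm38 and hg38. Coordinates are given on hg38, since the lists name chromosomes up to 22. The control, the threshold and the treatment of duplicates are not given in these sources. The authors' lists give per peak the deposited fold enrichment (ratio), −log10 p and −log10 q, and a deposited score derived from the −log10 q. These values describe, filter and rank peaks and regions, and libraries were compared by them only as an alternative.

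Tags were recovered as the whole number for which fold is tags plus 1 over background plus 1 and p the Poisson tail (tolerance 0.001 plus 0.0002 of the value). All peaks matched, 97.7% to 99.4% of them singly, and 996 of 1000 simulated peaks were recovered. Library totals are not in the lists, so tags were divided by the lowest background of the library (0.315 to 0.367 tags). Only the autosomes and X were used, and peaks overlapping by 1 bp or more were joined. The 77 megabases with more than 20 regions were set apart from rankings. Genes and promoters came from RefSeq (GRCh38.p14), and Python 3.11.15 and SciPy were used. Two-sided exact permutation tests over libraries were run only where all 4 libraries have a value.

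The members and lists were chosen with earlier results of these data known. Named genes were the members, genes holding a described region, pathway genes with a region in both libraries of a condition, the 6 next by fold enrichment, PTGES3 (chosen after its values were seen), and the 5 most like TBXAS1. The strongest TBXAS1 region was to be described, and since that choice depends on the class, both are. Replicates are not stated to be separate cultures, so the spread may be technical.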

Additional observations from a re-analysis of the deposited data

How the results depend on the processing

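The count of member genes with a shared CDDO-Im region fell from 4 to 2 (TBXAS1 and PTGS1) with a 10 kb window, with peaks inside the gene only and with peaks given to the nearest gene only. The count with a CDDO-Im-only region fell from 2 to 1 (TBXAS1) in each. At a −log10 q of at least 10 that count stayed 2 but held LTC4S in place of ALOX5. LTC4S counted there only because the vehicle peaks of its common region, at a −log10 q of 6.78 and 1.87, fell below the threshold. The log2 ratio of member peak numbers was 0.24 in those 3 settings, 1.12 at a −log10 q of at least 5, 2.38 at one of at least 10, and 0.29 to 0.74 when a library was left out. Pathway genes with a shared CDDO-Im region were 4 with a 10 kb window and inside the gene, and 8 to 17 with a library left out, the 17 without CDDO-Im 1 and resting on CDDO-Im 2 alone. The mean of the first and second TBXAS1 regions was 53.5 and 49.5 as undivided tags and 28.3 and 30.6 as deposited fold enrichment, which are other scales. At the PTGS1 region the log2 difference ranged from 1.40 to 2.29 with a library left out, and it was 1.97 with the other matching tag number in vehicle 2, a setting added after seeing the data. At the region in the LTC4S window it ranged from 1.57 to 2.63. With a replicate block the differences were 1.84 and 2.10 (exact sign-flip p = 0.5, the smallest possible). Deviations of same-numbered libraries in tags over background had a correlation of −0.04 over 230 regions. A correlation over regions cannot show a shift that all regions share, so nothing is concluded from it. The shortest listed peak was 201 and 206 bp in vehicle 1 and CDDO-Im 1, and 169 and 177 bp in vehicle 2 and CDDO-Im 2. Whether same-numbered libraries share a preparation was not tested. Low depth limits what can be said of unlisted sites.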
